A study of Mus musculus with 6 samples.

Results

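The clock output factors are 7 transcription regulator genes, Nfil3, Dbp, Tef, Hlf, Bhlhe40, Bhlhe41 and Ciart, chosen by symbol from the 24628 genes of the deposited table. All 7 were present in it. RNA-seq was compared between 3 libraries titled as Rorafl/fl, called floxed here, and 3 libraries titled treatment, called cKO (conditional knockout) here. The series text contrasts wild-type with cKO ILC1s, group 1 innate lymphoid cells that produce interferon-γ, which leaves the treatment libraries as the cKO group; their columns in the table carry Ncr1 before Rora. The labels describe the cells of all 6 libraries only as lymphocytes of the mouse, and give no age, sex, hour of collection, sort gate or number of animals. They name no Cre driver. Whether replicates are separate animals is not given either, and p-values here cover only the variation among these libraries, which could be technical.

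The circadian clock is a feedback loop in which BMAL1 (encoded by Arntl) and CLOCK bind E-box sequences and switch on their own inhibitors, while nuclear receptors of the ROR and REV-ERB families compete for shared response elements, RORs as activators and REV-ERBs as repressors. The output factors carry this rhythm to other genes. DBP, TEF and HLF are PAR bZIP activators of D-box sequences, and NFIL3 (E4BP4) is a bZIP repressor of the same sequences. BHLHE40 (DEC1) and BHLHE41 (DEC2) repress at E-boxes, and CIART (CHRONO) binds BMAL1 and represses it. NFIL3 is also required for the development of NK cells and of other innate lymphoid cells, and BHLHE40 supports cytokine production in T cells.

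Libraries held 20152146 to 22440170 reads assigned to genes. The 11 identity genes of ILC1s and NK cells, all tested, summed to 1001 to 1021 RPKM in floxed and 934 to 968 RPKM in cKO libraries, where RPKM is the read number corrected for the length of the gene and the depth of the library. Single members lay between 6.13 RPKM (Itga1) and 309 RPKM (Ncr1) in the mean over libraries. Eomes and Gzma of this list rose, Ncr1 and Cxcr6 fell and 7 did not pass, where 0.652% of all tested genes rose and 0.668% fell. Ncr1 fell from 372 ± 10.8 to 246 ± 12.5 RPKM (SD, n = 3 each; limma adjusted p = 0.00446). The Cxcr6 call was lost when any library other than floxed replicate 3 was left out (adjusted p = 0.0760 to 0.0947). The summed level of 6 B cell markers was 76.4 to 80.8 RPKM in the floxed group and 77.8 to 87.8 RPKM in the cKO group. Most of it was Ighm, at 65.6 and 76.2 RPKM in the floxed and cKO means, so the sum hides the other members. Cd22 (9.93 and 6.49 RPKM), Cd79b (1.71 and 0.866 RPKM) and Ms4a1 (0.318 and 0.103 RPKM) were lower in every cKO library than in any floxed library. Of the 3 tested B cell markers, 1 had groups apart with cKO above and 2 with cKO below. The 7 T cell markers summed to 59.3 to 62.8 and 53.9 to 59.6 RPKM, most of it Cd4, Cd3d and Cd3g, whose groups overlapped. Of the 5 tested T cell markers, 2 had groups apart with cKO below and 0 with cKO above. Among those below was Cd3e, at 5.35 and 2.93 RPKM in the floxed and cKO means. Rora, the targeted gene, was at 7.42 ± 0.493 and 6.07 ± 0.334 RPKM, with all cKO values below all floxed values, and did not pass (limma adjusted p = 0.242); the deleted exons are not named in the labels, so this value over the whole gene does not check the deletion.

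Nfil3 rose in the cKO libraries. Ciart and Bhlhe40, 2 other repressors, had higher values in every cKO library than in any floxed library without passing the main test, and the activators Dbp and Tef had overlapping groups. In bulk libraries a change in the share of cells that express a gene and a change in RNA per cell cannot be told apart. Genes entered the test with at least 1 RPKM in at least 3 libraries, which kept 5 of the 7 factors; Hlf and Bhlhe41 stayed below this limit. By limma on log2(RPKM + 1), 1 of the 5 rose, 0 fell and 4 did not pass at a Benjamini-Hochberg adjusted p under 0.05. Across all 12731 tested genes 0.652% rose and 0.668% fell. With median centring of the libraries the calls across all genes shifted from 83 higher and 85 lower to 124 higher and 71 lower. Before adjustment (p under 0.05), limma placed 3 of the 5 factors higher and 0 lower, against 5.55% and 8.6% of all genes. On recovered reads, limma voom called 3 higher and 0 lower, against 1.78% and 2.41% of all genes. Their groups lay apart with cKO above in 3 and with cKO below in 0, against 7.61% and 12.7% of all genes. The median log2 difference, cKO minus floxed, was 0.26 over the 5 factors and -0.03 over all tested genes.

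**Figure D1:**
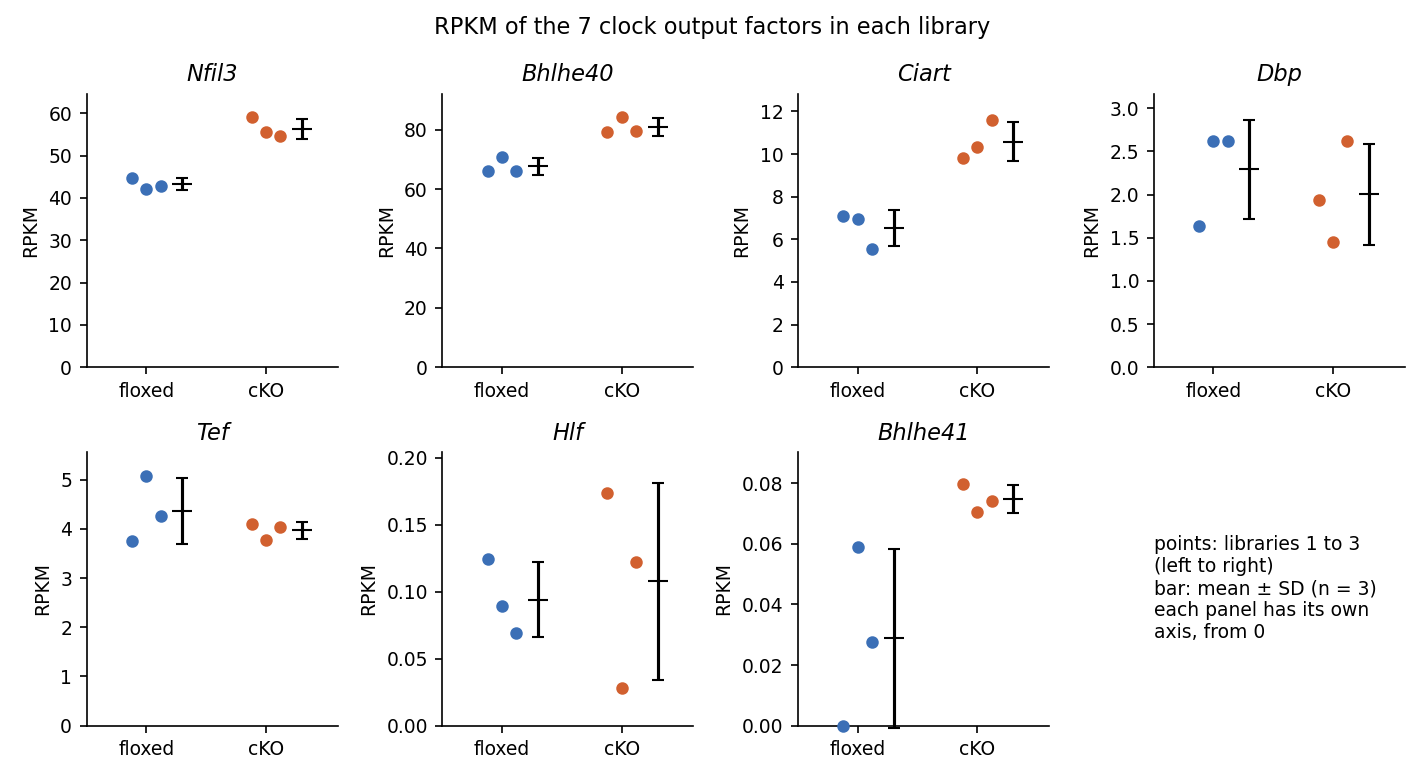
RPKM of the 7 clock output factors in the 3 floxed (blue) and 3 cKO (orange) libraries, with mean ± SD and a separate axis from 0 for each gene. The cKO points of Nfil3, Bhlhe40 and Ciart sit above all floxed points, the points of Dbp and Tef mix, and Hlf and Bhlhe41 stay below 0.2 RPKM.

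Per length of gene, the factors followed 1 order in level. Averaged over the 6 libraries, Bhlhe40 stood at 74.3 RPKM, Nfil3 at 49.8, Ciart at 8.55, Tef at 4.17, Dbp at 2.15, Hlf at 0.101 and Bhlhe41 at 0.0518 RPKM. Each was higher than the next in all 6 libraries, and their ranges did not overlap, except that Hlf exceeded Bhlhe41 in 5 of 6 libraries and these ranges overlapped. Among the 24628 genes of the table Bhlhe40 ranked 802 and Nfil3 1227 by mean level. Together these repressors made up 88.4 to 89.8% of the summed RPKM of the 7 factors in the floxed group and 87.9 to 89.9% in the cKO group. The sum itself was 121 to 128 RPKM in the floxed and 152 to 156 RPKM in the cKO group.

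Nfil3 lies on chromosome 13 (52967209 to 52981073, minus strand, mm10) and its model in the table has 2 exons and 2026 exon bases, none of them shared with another gene of the table. Its level was 44.8, 42.2 and 42.8 RPKM in floxed replicates 1 to 3 and 59.1, 55.5 and 54.6 RPKM in cKO replicates 1 to 3. The lowest cKO value thus lay well above the highest floxed value, and the libraries of a group lay close together, on 1724 to 1970 reads per floxed and 2375 to 2685 reads per cKO library. The mean rose from 43.3 ± 1.34 to 56.4 ± 2.36 RPKM (SD, n = 3 each), or to 130.3% of the floxed level. On the log2 scale the cKO mean lay 0.37 higher (SE 0.05, 95% confidence interval 0.26 to 0.49; limma adjusted p = 0.0231), and an exact permutation test of the means gave p = 0.1, two-sided, the smallest that 20 assignments allow. Leaving out any single library ended the limma call, with differences of 0.34 to 0.40 and adjusted p = 0.0545 to 0.0991, as did a fit without the mean-variance trend (adjusted p = 0.0916).

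The 250 bases before the Nfil3 start site are shown because RORα, the product of the targeted gene, and REV-ERBs are known to bind the core site AGGTCA, and Nfil3 is known as a gene that REV-ERBα represses. Sequences are those of RefSeq, build GRCm38.p6, which matched 6 of the 7 factors; Bhlhe40 had no entry. This window (chr13:52981040-52981289, minus strand) ends at the RefSeq start, which lies inside the first exon of the deposited model. It is printed 5′ to 3′ with capitals at the match to TAGGTCA, which is the core site with a leading T and is read on the opposite strand.
Nfil3: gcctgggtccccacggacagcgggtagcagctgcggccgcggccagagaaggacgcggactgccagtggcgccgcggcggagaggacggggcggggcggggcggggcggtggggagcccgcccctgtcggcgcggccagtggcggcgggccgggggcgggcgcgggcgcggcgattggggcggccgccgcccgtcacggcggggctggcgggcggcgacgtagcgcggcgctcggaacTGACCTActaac
The core site covers bases 12 to 7 before the start. Searched on both strands, AGGTCA occurred in 14.0% of 32851 promoter windows of this length and TAGGTCA, a subset of it that was added after the Nfil3 window was seen, in 2.23%. The windows of Dbp, Tef, Hlf, Bhlhe41 and Ciart held neither. A match is a description of these letters; binding was not measured.

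The same cKO libraries differed in other respects, beside the changes in ILC1 and NK identity genes given above. Of 25 tested immediate-early and dissociation-response genes, which cells induce within minutes of a stimulus or of tissue handling, 19 rose and 0 fell. By the same limma test 0.652% of all genes rose and 0.668% fell. Before adjustment (p under 0.05) 21 of the 25 were higher and 2 lower, against 5.55% and 8.6% of all genes. With voom 21 were called higher and 1 lower, against 1.78% and 2.41% of all genes. Their 26 listed genes summed to 2488 to 2498 RPKM per floxed and 3967 to 4039 RPKM per cKO library. Xist was at 31.9 ± 3.16 and 9.43 ± 0.394 RPKM and the Y-linked Ddx3y at 10.4 ± 0.498 and 20.8 ± 0.438 RPKM (n = 3 each). Cd22 of the B cell list and Cd3e of the T cell list fell, calls that were lost when 5 and 6 of the libraries, respectively, were left out in turn, the other tested members of both lists did not pass, and no marker of either list was at 0 in all libraries. The part of these differences in the values of Nfil3, Ciart and Bhlhe40 was not tested.

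Bhlhe40 (chromosome 6, 108660629 to 108666925, plus strand) was the most abundant of the 7 factors. It was at 66.1, 70.9 and 65.9 RPKM in floxed and 79.1, 84.4 and 79.5 RPKM in cKO replicates 1 to 3. The groups did not overlap, and the difference rested on 6713 to 6750 and 8248 to 8385 reads per library. The mean was 67.7 ± 2.85 and 81.0 ± 2.96 RPKM (n = 3 each), with a log2 difference of 0.26 (SE 0.05, 95% confidence interval 0.14 to 0.38). It did not pass (limma adjusted p = 0.0779; exact permutation p = 0.1); voom called it (adjusted p = 0.000904), and adjusted p ranged from 0.000904 to 0.246 over the alternatives. The gene shares 2.51% of its exon bases with 0610040F04Rik on the opposite strand, which was at 19.8 ± 0.963 and 24.9 ± 0.996 RPKM, and without the strand setting of the counting reads of such partners cannot be told apart.

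Its paralog Bhlhe41 (chromosome 6, 145858243 to 145865558, minus strand) was close to the limit of detection, with 0, 8 and 4 reads in floxed and 12, 10 and 11 reads in cKO replicates 1 to 3. That is 0, 0.0591 and 0.0275 RPKM against 0.0796, 0.0705 and 0.0742 RPKM. All cKO values lay above all floxed values (exact permutation p = 0.1). Summed over a group, 12 reads in floxed libraries gave 0.189 RPM (reads scaled only to depth; 95% exact Poisson interval 0.0976 to 0.330) and 33 reads in cKO libraries gave 0.503 RPM (0.346 to 0.706). These intervals cover counting error only and take each read as independent. The reads of this gene were even numbers in all libraries but cKO replicate 3, and whether both reads of a pair were counted was not given. If so, the intervals would be wider, and their separation is not read as a difference. Of the exon bases, 19.1% are shared with Gm43909 on the opposite strand.

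Ciart (chromosome 3, 95878503 to 95882251, minus strand) had the largest log2 difference of the 5 tested factors. It was at 7.11, 6.94 and 5.56 RPKM in floxed and 9.80, 10.3 and 11.6 RPKM in cKO replicates 1 to 3. The groups were apart, on 272 to 349 and 493 to 578 reads per library. The mean was 6.54 ± 0.849 and 10.6 ± 0.920 RPKM (n = 3 each), a cKO level of 161.7% of the floxed one. The log2 difference of 0.62 (SE 0.11, 95% confidence interval 0.36 to 0.88) did not pass in limma (adjusted p = 0.0568; exact permutation p = 0.1). It passed with voom (adjusted p = 0.00359) and in 3 of the other alternatives, and adjusted p ranged from 0.00359 to 0.184 over all of them.

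The window before the Ciart start site (chr3:95882229-95882478, minus strand, GRCm38.p6) is shown because CIART acts on BMAL1, whose complex with CLOCK binds the E-box CACGTG. Capitals mark E-boxes.
Ciart: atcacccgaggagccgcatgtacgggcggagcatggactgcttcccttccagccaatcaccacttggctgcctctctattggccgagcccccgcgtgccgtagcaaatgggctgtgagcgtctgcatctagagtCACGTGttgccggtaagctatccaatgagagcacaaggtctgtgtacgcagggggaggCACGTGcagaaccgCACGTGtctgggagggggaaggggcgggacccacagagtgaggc
The 3 E-boxes begin 116, 58 and 44 bases before the start. CACGTG reads the same on both strands and occurred in 6.02% of the 32851 windows, and 0.0609% held 3 or more. Among the other factors, Bhlhe41 and each of the Tef windows held 1, and the windows of Nfil3, Dbp and Hlf held none. The D-box TTANGTAA, searched on both strands, occurred in 2.06% of all windows and in none of the factors' windows, and the cAMP response element TGACGTCA occurred in 1.55% of all windows and in that of Hlf.

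The D-box activators did not pass in either direction. Dbp (chromosome 7, 45705088 to 45710203, plus strand) was at 1.63, 2.62 and 2.63 RPKM in floxed and 1.94, 1.46 and 2.62 RPKM in cKO replicates 1 to 3. High and low libraries occurred in both groups. The coefficient of variation was 25.0% in floxed and 29.2% in cKO libraries. Counting error at 92 to 173 reads per library would give 8.31 and 8.71% if each read were independent. The mean was 2.29 ± 0.572 and 2.00 ± 0.585 RPKM (n = 3 each), and the log2 difference of -0.13 had a 95% confidence interval of -0.61 to 0.34 (limma adjusted p = 0.824; exact permutation p = 0.6). The interval includes the difference of Bhlhe40 (0.26) and ends just short of that of Nfil3 (0.37); a difference between factors was not tested. Dbp shares 18.0% of its exon bases with Sphk2 on the opposite strand, which was at 4.13 ± 0.231 and 3.69 ± 0.533 RPKM.

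Tef (chromosome 15, 81802421 to 81826861, plus strand) was at 3.75, 5.08 and 4.26 RPKM in floxed and 4.10, 3.78 and 4.03 RPKM in cKO replicates 1 to 3. The cKO values lay within the floxed range. The floxed libraries spread more widely, with a coefficient of variation of 15.3% against 4.33% in cKO libraries. The mean was 4.36 ± 0.669 and 3.97 ± 0.172 RPKM (n = 3 each), with a log2 difference of -0.10 (95% confidence interval -0.37 to 0.17; limma adjusted p = 0.750; exact permutation p = 0.5). Hlf (chromosome 11, 90336536 to 90390895, minus strand) had 10 to 18 reads per floxed and 4 to 26 reads per cKO library, or 0.0941 ± 0.0278 and 0.108 ± 0.0736 RPKM (exact permutation p = 0.9). The 40 floxed and 48 cKO reads gave 0.630 RPM (95% exact Poisson interval 0.450 to 0.858) and 0.732 RPM (0.539 to 0.970), so no difference was detectable at this depth. These intervals also take each read as independent, and the reads of Hlf were even numbers in every library.

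**Figure D2:**
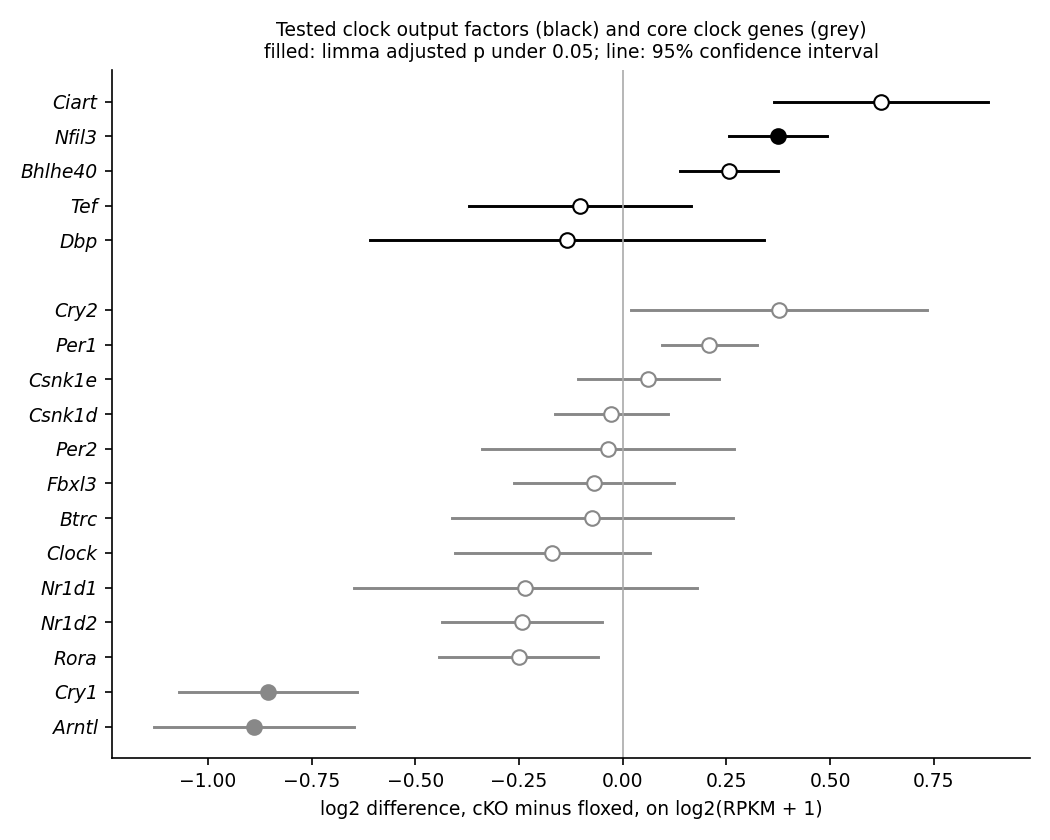
Log2 difference (cKO minus floxed, on log2(RPKM + 1), horizontal axis) with its 95% confidence interval for the 5 tested clock output factors (black) and 13 tested core clock genes (grey); filled points passed at an adjusted p under 0.05. Nfil3 at 0.37 passed as higher, and Arntl at -0.89 and Cry1 at -0.85 passed as lower.

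Within each library, Nfil3 RNA exceeded the summed RNA of the activators that share its binding site. The ratio of Nfil3 to the sum of Dbp, Tef and Hlf, all in RPKM, was 8.13, 5.42 and 6.16 in floxed and 9.51, 10.6 and 8.06 in cKO replicates 1 to 3. The groups overlapped, with floxed replicate 1 above cKO replicate 3. The ratio of Bhlhe40 to Nfil3 also overlapped, at 1.48 to 1.68 in the floxed and 1.34 to 1.52 in the cKO group.

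The list of core clock genes that drive these factors includes Rora, the targeted gene. Of 13 tested, 2 fell, 0 rose and 11 did not pass, where 0.668% of all genes fell and 0.652% rose. Before adjustment (p under 0.05) limma placed 2 higher and 4 lower, Rora among the 4, against 5.55% and 8.6% of all genes. On recovered reads voom called 1 higher and 3 lower, against 1.78% and 2.41% of all genes. Arntl, which encodes BMAL1, fell from 5.24 ± 0.270 to 2.37 ± 0.290 RPKM (n = 3 each; limma adjusted p = 0.0127). Cry1, an inhibitor of CLOCK and BMAL1, fell from 10.2 ± 0.818 to 5.18 ± 0.421 RPKM (limma adjusted p = 0.00985). The Arntl call was lost without floxed replicate 2 or 3 or cKO replicate 2 or 3 (adjusted p = 0.0575 to 0.0707) and the Cry1 call without floxed replicate 3 (adjusted p = 0.0538). Per1, a rapidly inducible inhibitor, was at 22.5 ± 0.459 and 26.1 ± 0.669 RPKM with groups apart and did not pass (limma adjusted p = 0.126). The REV-ERB genes Nr1d1 (1.25 ± 0.0289 and 0.933 ± 0.348 RPKM) and Nr1d2 (8.63 ± 0.552 and 7.14 ± 0.498 RPKM) did not pass. The groups of Nr1d1 overlapped, and those of Nr1d2 were apart with cKO below. Of the 13 tested core clock genes 3 had groups apart with cKO above and 5 with cKO below, against 7.61% and 12.7% of all genes. Set against Arntl, Ciart gave a ratio of 1.43, 1.33 and 1.01 in floxed and 3.63, 4.51 and 5.43 in cKO replicates 1 to 3, and Dbp a ratio of 0.328 to 0.501 in the floxed and 0.635 to 1.23 in the cKO group. Both ratios kept the groups apart, but so did Arntl alone, at 4.97 to 5.51 RPKM in floxed and 2.13 to 2.70 RPKM in cKO libraries. The separation of the ratios therefore adds nothing of its own, and Dbp itself had overlapping values.

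**Figure D3:**
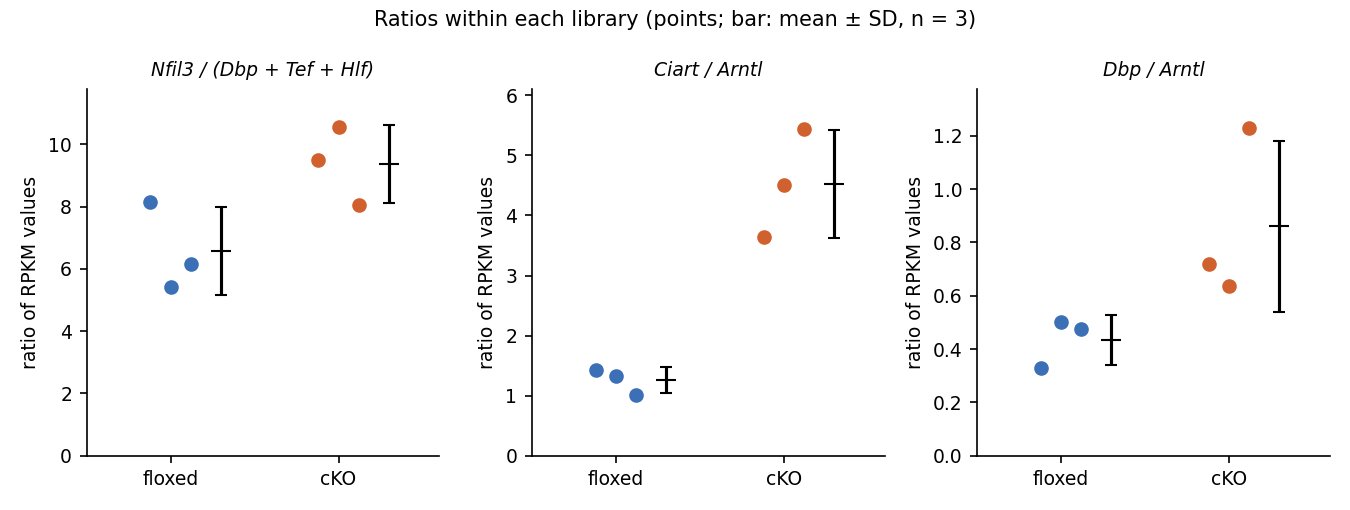
Ratios of RPKM values within each library (points), with mean ± SD (n = 3), for Nfil3 over the summed PAR bZIP genes, Ciart over Arntl and Dbp over Arntl. The first ratio overlaps between floxed (5.42 to 8.13) and cKO (8.06 to 10.6) libraries, and the other ratios do not overlap. Arntl, the denominator of both of these, was itself lower in every cKO library than in any floxed library.

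Genes under clock control in many tissues did not pass in this comparison, in which 0.652% of all tested genes rose and 0.668% fell. Of 9 listed, 7 were tested, 0 rose and 0 fell in limma, 0 reached p under 0.05 before adjustment, voom called 0, and the median log2 difference was -0.11. Among them, the glucocorticoid-induced Tsc22d3 was at 37.7 ± 3.23 and 41.4 ± 0.653 RPKM and Nampt, an enzyme of NAD synthesis, at 8.86 ± 0.389 and 7.89 ± 0.484 RPKM (n = 3 each).

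Of the genes linked to NFIL3 in lymphoid development, Eomes passed. Of 14 tested, 1 rose, 0 fell and 13 did not pass, where 0.652% of all tested genes rose and 0.668% fell. Before adjustment (p under 0.05) 1 was higher and 4 lower, against 5.55% and 8.6% of all genes. In each direction voom called 1, against 1.78% higher and 2.41% lower of all genes. The median log2 difference was -0.03. Eomes, which encodes a T-box factor that NFIL3 is known to induce, rose from 42.4 ± 2.44 to 65.8 ± 4.31 RPKM (n = 3 each; limma adjusted p = 0.0106); this call was lost without floxed replicate 3, cKO replicate 1 or cKO replicate 3 (adjusted p = 0.0617, 0.0549 and 0.0575). Id2, an inhibitor of E proteins that all innate lymphoid cells need and another known target, was at 131 ± 8.48 and 106 ± 4.56 RPKM with cKO below in every library, and did not pass (limma adjusted p = 0.0917). Of the cytokine genes linked to BHLHE40, Ifng was at 59.6 ± 3.96 and 68.2 ± 1.12 RPKM and Csf2 at 18.3 ± 1.04 and 14.4 ± 0.667 RPKM, each with groups apart and neither passing (limma adjusted p = 0.200 and 0.0881). Il10, which BHLHE40 represses in T cells, was below 0.2 RPKM in each library.

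The genes closest in pattern to each factor were ranked by Pearson correlation of log2(RPKM + 1) over the 6 libraries. For factors whose groups lay apart, the group difference enters this value. With 12731 tested genes and only 6 libraries, correlations this high also arise by chance, so the ranks are description only. For Nfil3 these were Rnaseh2a (r = 0.994), Sap18 (0.992) and Socs3 (0.992), a feedback inhibitor of cytokine signalling, and 82 genes exceeded 0.95. For Ciart they were the Ly49 receptor gene Klra4 (0.998), the NK receptor gene Klre1 (0.994) and Sfr1 (0.993), and for Bhlhe40 Gon4l (0.992), Zcchc11 (0.990) and Map7d1 (0.990). For Dbp they were the haemoglobin gene Hba-a1 (0.988), Pcif1 (0.987) and Med19 (0.986), with 12 genes over 0.95. Hba-a1 was at 0.350 to 1.25 RPKM, on only 6 to 22 reads per library. The erythroid markers summed to 2.39 to 5.59 RPKM in floxed and 1.61 to 2.24 RPKM in cKO libraries. The part of these markers in the Dbp values was not tested. For Tef they were Ankrd27 (0.981), Otub2 (0.978) and Zfp36l2 (0.975), with 17 genes over 0.95.

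**Figure D4:**
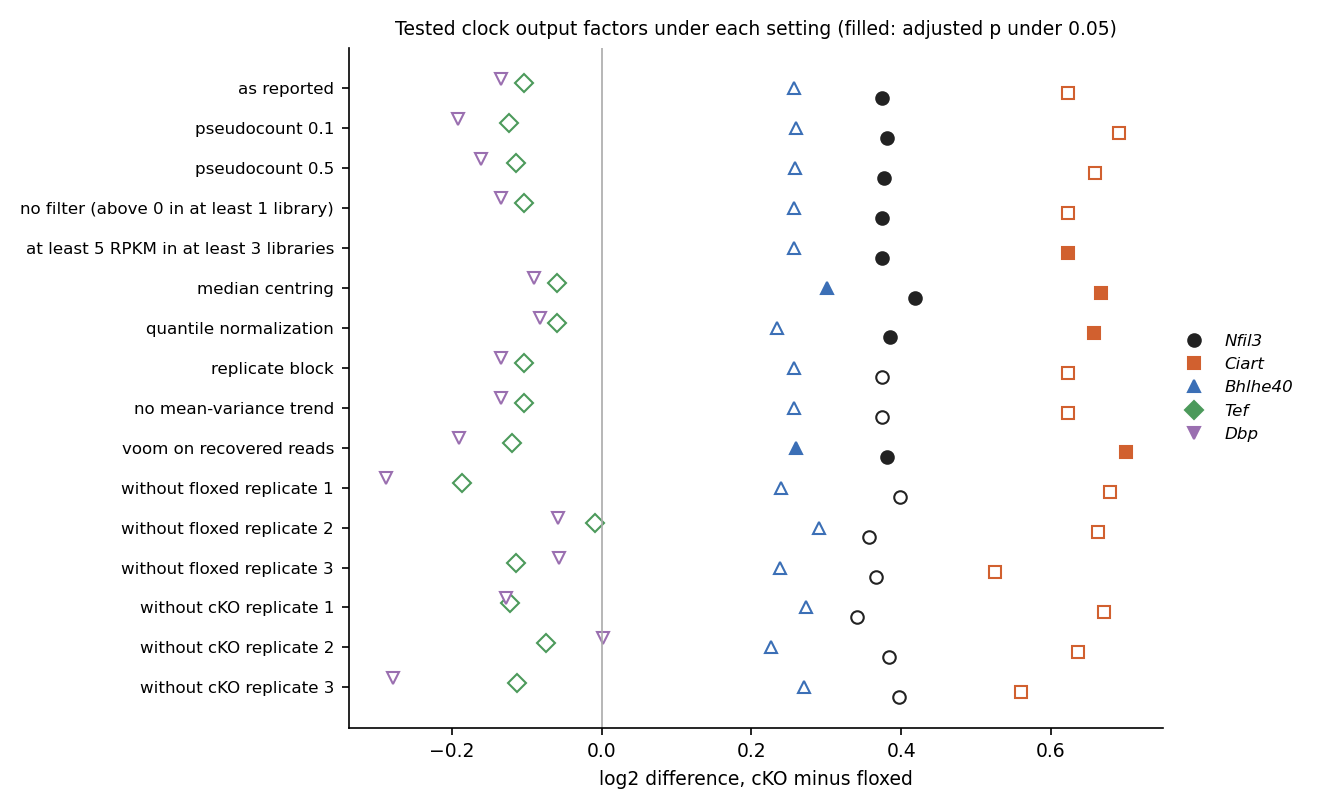
Log2 difference (cKO minus floxed, horizontal axis) of the 5 tested clock output factors under the reported setting and 15 alternatives (rows); filled symbols have an adjusted p under 0.05. Nfil3, Ciart and Bhlhe40 stay above 0 in every row, Tef stays below 0, and Dbp crosses 0 without cKO replicate 2.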

How the data were processed

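Per the labels, total RNA was isolated with TRIzol and made into libraries with a stranded mRNA kit. The authors deposited RPKM for 24628 genes in 6 libraries, with exon coordinates and gene lengths; per the submitters' processing notes the genome build was mm10 and the tools were edgeR 3.12.1, featureCounts, STAR 2.5.3a and Subread 1.5.1. What each tool did, the annotation, the strand setting and how duplicates were treated were not given in the sources used here. All 6 expression columns were mapped to samples, the floxed ones by name and replicate number and the cKO ones by elimination and replicate number.

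RPKM times gene length fell on whole multiples of 1 step per library for 100% of values, within 0.001 reads, which gave the reads per gene and library. Pairs of libraries differed by more than counting noise (chi-square per gene 6.79 to 15.8 within groups, at 500 or more summed reads), so each counted as 1 replicate.

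limma 3.58.1 (R 4.3.3; lmFit, eBayes with a mean-variance trend) was fitted across the table on log2(RPKM + 1), two-sided, without covariates, for the 12731 genes that reached 1 RPKM in 3 or more libraries; the threshold was a Benjamini-Hochberg adjusted p under 0.05 over all of them. A pseudocount of 1 understates the change of low genes. The fit was tested on simulated data with changes larger than those of the factors, so that test does not cover changes of their size. Same-numbered libraries of the 2 groups did not deviate together, so no pairing was used. The factors and gene lists were chosen with earlier results of these data known, and support nothing by their choice; 1 marker gene is not reported here. All 7 factors were named; of other lists, passing genes and up to 3 others by level could be named, and 3 genes most like each tested factor, without predicted genes, pseudogenes and receptor segments. Promoter windows were read from a RefSeq table, GRCm38.p6. Alternatives were pseudocounts, filters, scalings, the replicate block, another spread estimate, voom on recovered reads and each library left out.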

Additional observations from a re-analysis of the deposited data

How the results depend on the processing

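Over 15 alternatives Nfil3, Ciart and Bhlhe40 kept a positive difference and Tef, in 14, a negative one. Factors called higher numbered 1 as reported, 2 with a limit of 5 RPKM or quantile normalization, 3 with median centring or voom, and 0 with the replicate block, without the mean-variance trend and without any 1 library (lowest and highest 0); 0 were called lower in each. Nfil3 kept its size but not its call with the replicate block (0.37, adjusted p = 0.0756) and without the trend (0.37, adjusted p = 0.0916), and leaving out libraries gave 0.34 to 0.40. Ciart passed with the 5 RPKM limit (0.62), median centring (0.67), quantile normalization (0.66) and voom (0.70), and Bhlhe40 with median centring (0.30) and voom (0.26). Dbp was at -0.29 to 0.0016 when libraries were left out, above 0 only without cKO replicate 2 (0.0016). Per2, at -0.04 as reported, was at -0.14 to 0.033 when libraries were left out, at 0.0076 with median centring, 0.0068 with quantile normalization, 0.033 without floxed replicate 1 and 0.018 without cKO replicate 3. The cause of these changes was not tested.

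Over all genes tested, 83 rose and 85 fell as reported, against 44 and 36 without a filter, 37 and 23 with the replicate block, 39 and 35 without the trend, 226 and 307 with voom, 124 and 71 with median centring, and 33 to 50 and 27 to 39 with 1 library left out. The block uses replicate numbers that did not pair the libraries: same-numbered libraries correlated at -0.0316, 0.0132 and 0.0436 in their deviations from the group means. The block also ended the calls of Arntl (adjusted p = 0.0842), Cry1 (0.0567), Dusp1 (0.0687), Zfp36 (0.106), Cxcr6 (0.0927), Cd22 (0.129) and Cd3e (0.105); those of Zfp36, Cxcr6, Cd22 and Cd3e were lost without a filter too (0.0858, 0.0670, 0.0759 and 0.0669). Depth limits Hlf and Bhlhe41, at 0 to 26 reads per library.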

Other observations

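Relatives of the output factors gave further values. The counts below stand against 0.652% of all tested genes that rose and 0.668% that fell in limma. Before adjustment (p under 0.05) 5.55% of all genes were higher and 8.6% lower, and voom called 1.78% higher and 2.41% lower. Of the C/EBP family, bZIP factors whose binding sites resemble the D-box, 3 of 6 were tested and 1 rose: Ddit3, which encodes the stress-induced CHOP, from 43.9 ± 1.06 to 69.9 ± 3.34 RPKM (SD, n = 3 each; limma adjusted p = 0.00336), a call kept in all 15 alternatives. Cebpb was at 12.8 ± 0.881 and 15.9 ± 2.67 RPKM and Cebpg at 6.80 ± 0.319 and 5.58 ± 0.209 RPKM, and neither passed (limma adjusted p = 0.354 and 0.213). Of the Hes and Hey genes, repressors related to BHLHE40, 2 of 9 were tested and 0 passed in limma or voom, with 1 higher and 0 lower before adjustment (p under 0.05). Hes1, a target of Notch signalling, was at 6.96, 10.2 and 10.6 RPKM in floxed and 11.1, 13.9 and 13.3 RPKM in cKO replicates 1 to 3. Of 8 glucocorticoid-responsive genes 2 rose, Dusp1 (66.5 ± 5.35 to 111 ± 8.84 RPKM) and Zfp36 (71.5, 77.9 and 74.4 RPKM in floxed and 97.4, 97.8 and 89.7 RPKM in cKO replicates 1 to 3), both also in the immediate-early list, and 0 fell, with 4 higher and 0 lower before adjustment (p under 0.05) in limma and 3 and 0 called by voom. The Zfp36 call was lost without any single library (adjusted p = 0.0700 to 0.161), and the Dusp1 call without cKO replicate 1 or 2 (adjusted p = 0.0610 and 0.0619). Outside the immediate-early list, the members with the highest levels were Tsc22d3, Per1 and Fkbp5, and none of these passed in limma. Tsc22d3 and Per1 are given above, and voom called Per1 higher (adjusted p = 0.0355). Fkbp5 was at 24.5 ± 2.23 and 22.6 ± 1.91 RPKM, with overlapping groups. Per3, a clock gene under E-box and D-box control that stayed below the limit for testing, was at 0.566, 0.620 and 0.491 RPKM in floxed and 0.320, 0.306 and 0.321 RPKM in cKO replicates 1 to 3, so its groups did not overlap.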
